A study of Caenorhabditis elegans with 30 samples.

Results

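The genes of the nematode Caenorhabditis elegans that are named col followed by a number encode collagens, most of them of the cuticle. They were taken by symbol alone, with no measured value in the rule, but earlier results of these data were known when the family was chosen. The rule found 156 genes among the 46726 gene identifiers counted, of which 43623 carried a gene name. Of the 156, 21 lie on chromosome I, 24 on II, 12 on III, 41 on IV, 31 on V and 27 on X (assembly WBcel235). The worms were exposed for 72h or 24h to 100 µM of the thymidine analogues AZT (zidovudine), d4T (stavudine) or FLT (alovudine), drugs against HIV whose sugar bears an azido group (AZT), a double bond (d4T) or a fluorine (FLT). Each analogue was dissolved in DMSO, and control worms received 0.033% DMSO or nothing. Each of these 5 exposures at each of the 2 times had 3 biological replicates, which gave 30 RNA-seq libraries. Exposure began in the L4 stage, the last larval stage, so both times fall into adult life. Bacteria and eggs were removed on a mesh before RNA was taken from pools of whole worms, and the cultures of 72h were moved to new plates every day. The labels name no strain or genotype and no transgene.

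The cuticle is a layered extracellular matrix that the hypodermis secretes at the end of embryonic life and again at each larval moult. Cuticle collagens are short chains with a Gly-X-Y repeat that are hydroxylated, paired by disulphide bonds, trimmed by proteases and cross-linked through tyrosines. They are known for waves of expression in each moulting cycle, with genes that act early, midway or late. Some mark one stage: col-19 and col-7 are adult collagens, col-17 is a larval one, col-38, col-49 and col-63 belong to L4, and col-2 to the dauer larva. The genes col-10, col-13 and col-120 are known to be needed for the long life of insulin receptor mutants. One member is no cuticle collagen, since col-99 encodes a membrane-bound collagen of neurons and muscle.

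Libraries held 11326667 to 30618790 counts on genes, which sets the precision of the low levels below. The levels below are counts scaled to a common library size (CPM), with sizes corrected by the trimmed mean of M-values. The Pearson correlation of log2 levels across the 16048 genes tested, which are not independent replicates, was lowest within a group for the library labelled d4T 24h replicate 2. Its r was 0.921 and 0.938 within its own group, and 0.994 to AZT 24h replicate 2. It was thus closer to AZT than to the group on its label, and it may be mislabelled, which the files cannot settle. It stayed in the fits as labelled, so every value of d4T at 24h, and of AZT against d4T at 24h, depends on that label. Within FLT at 24h the lowest r was 0.967, between replicates 1 and 3, and replicate 3 was closer to d4T 24h replicate 3 (0.987) than to its own group (at most 0.982). FLT 24h replicate 1 was closest to its own group but stood apart in its col levels, given below. Results at 24h are also given without d4T 24h replicate 2 and FLT 24h replicate 1, and the count for FLT also without replicate 3. Ribosomal RNA genes took 5.78% of the counts of AZT 72h replicate 1 and 4.99% of those of d4T 24h replicate 1, against 0.259% to 2.37% elsewhere. The exposures did not share lanes, and FLT ran on another flow cell, so at either time an effect of the lane cannot be told apart from one of the drug.

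Of the 156 genes, 19 had no count in any library: col-14, col-35, col-39, col-41, col-48, col-74, col-79, col-80, col-84, col-91, col-101, col-107, col-119, col-122, col-123, col-124, col-126, col-127 and col-130. A further 28 had counts but were too low to test, and 109 were tested. Reads that matched more than one place in the genome were not counted to a gene, so near-identical copies can be undercounted. The exons of 45 members overlap a gene on the other strand, and whether counting used strand is not given, so reads of the partners cannot be told apart there.

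The family was led by few genes. The mean level per kilobase of exon over all libraries was highest for col-181, at 1378 CPM per kb. It was followed by col-106 at 1254 CPM per kb, col-140 at 915.8, col-184 at 903 and col-95 at 653. The 10 genes with the highest mean CPM per kb (these 5, col-8, col-143, col-20, col-19 and col-178) held 84.6% to 88.7% of the summed col level in every group. In contrast, 75 members averaged above 0 and up to 1 CPM over all libraries, and 47 of these passed the filter for testing.

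The summed level of all 156 genes was 9341, 8495 and 8370 CPM in AZT 72h nematodes, against 6163, 5205 and 4145 CPM in DMSO 72h nematodes. All AZT libraries were above all DMSO libraries. It was 4584, 3772 and 4268 CPM with d4T at 72h and 6263, 4598 and 5116 CPM with FLT at 72h, and both of these groups overlapped DMSO. At 24h it was 12097, 12592 and 11529 CPM with AZT, against 10291, 10265 and 12107 CPM with DMSO, again with overlap. With d4T at 24h the sums were 6429, 15100 and 4687 CPM, so that replicate 2 lay above every DMSO library and the other replicates below. With FLT at 24h they were 19616, 7946 and 5532 CPM, with replicate 1 above and the others below DMSO. DMSO at 24h was below the unexposed worms, which had 14950, 17205 and 16120 CPM. No test was run on the sums. In bulk RNA of whole worms, fewer cells of a type and less RNA per cell cannot be told apart.

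**Figure D1:**
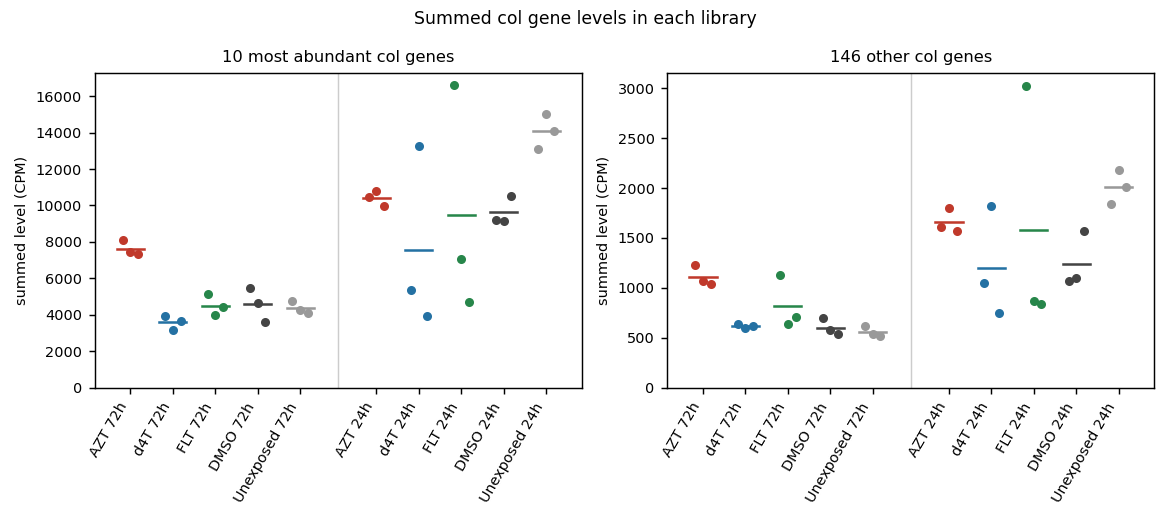
Summed level in CPM of the 10 most abundant col genes (left) and of the 146 others (right) in each library, by group, with 72h left of 24h. Points are libraries and lines are means of 3. The 10 abundant genes reach 13282 CPM in d4T 24h replicate 2 and 16590 CPM in FLT 24h replicate 1, far from the other libraries of those groups.

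The members with a known stage were read first. The adult collagen col-19 (chromosome X from 421707 to 422691) had 187.7, 197.3 and 211.6 CPM with AZT at 72h, against 168, 158.4 and 144.2 CPM with DMSO at 72h. At 24h it had 835, 863.3 and 828 CPM with AZT, against 643, 628.8 and 792.1 CPM with DMSO. The AZT libraries lay above the DMSO libraries at both times, with log2 fold changes of 0.34 (SE 0.43, adjusted p = 0.49) at 72h and 0.29 (SE 0.42, adjusted p = 0.61) at 24h that did not pass the test. Thus an adult cuticle gene was abundant in every group. The larval collagen col-17 stayed under 1.43 CPM throughout, with 1.425, 0.9409 and 1.159 CPM in AZT 72h nematodes against 0.2524, 0.1269 and 0.1116 CPM in DMSO 72h nematodes. It rose with AZT at 72h (log2 fold change 2.81, SE 0.73, adjusted p = 0.002), a call lost without DMSO 72h replicate 2 or 3 (adjusted p of up to 0.014). The L4 collagens col-49 and col-63 were as scarce: col-49 reached at most 0.5881 CPM and col-63 at most 1.613 CPM in any library. At 72h col-63 had 0.8909, 1.137 and 1.506 CPM with AZT against 0.1682, 0.1692 and 0.1488 CPM with DMSO, and it rose by 2.82 on the log2 scale (adjusted p = 0.0096). This call was lost with any of the 6 libraries left out (up to 0.036). The dauer collagen col-2 did not exceed 0.7165 CPM, and col-7, the other adult gene, not 0.9911 CPM; col-2, col-7 and col-49 were too low to test.

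Exposure to AZT for 72h raised many col genes at once. Of the 109 tested, 50 rose and 0 fell at an adjusted p under 0.01 in edgeR's quasi-likelihood test, which stands behind every call and every p given here unless another tool is named. Among all 16048 genes tested, 27.2% rose and 21.6% fell in this comparison. Without adjustment (p under 0.05), 63 members were higher and 3 lower, and DESeq2 called 47 and 2. Counts without adjustment or by DESeq2, here and below, have no share of all genes beside them and are not set against one. The median log2 fold change of the members was 1.47, beside 0.36 over all genes. Without the AZT 72h libraries 102 members pass the filter, and 46 of these rose. All 50 had AZT libraries that did not overlap the DMSO libraries, as did 4369 of the 4371 genes that rose in all, and 32 of the 50 calls held whichever of the 6 libraries was left out. For 30 of the 50, replicate 1, with 5.78% of its counts on ribosomal RNA genes, was the highest AZT library. The raised members were mostly scarce in the control, with a median of 0.903 CPM in DMSO 72h nematodes and 46 of 50 under 10 CPM. They came from all chromosomes: 5 of 11 tested on I, 5 of 15 on II, 3 of 10 on III, 13 of 25 on IV, 12 of 27 on V and 12 of 21 on X.

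**Figure D2:**
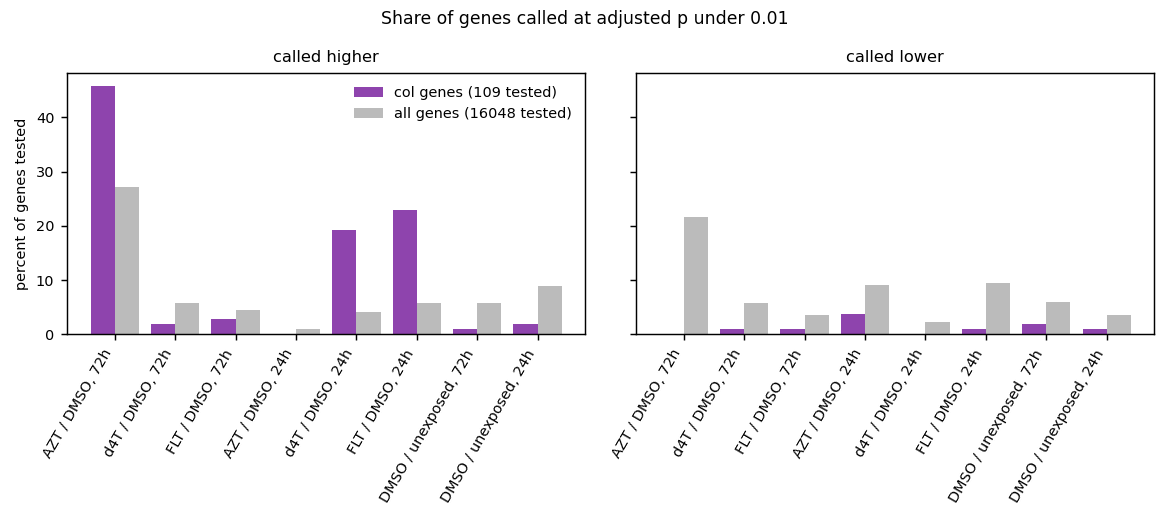
Percent of the 109 col genes tested (purple) and of all 16048 genes tested (grey) called higher (left) or lower (right) at an adjusted p under 0.01, by comparison. The col bars exceed the grey bars in the higher panel for AZT at 72h (45.9% against 27.2%), d4T at 24h (19.3% against 4.07%) and FLT at 24h (22.9% against 5.74%).

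Among the raised members with higher levels, col-165 (chromosome X from 4353618 to 4354852) had 148.1, 125.2 and 114.0 CPM with AZT at 72h, against 26.33, 21.19 and 23.59 CPM with DMSO. Every AZT library was above every DMSO library, and the log2 fold change was 2.45 (SE 0.45, adjusted p = 7e-05). The level of col-77 (chromosome II from 8358228 to 8359381) was 22.63, 20.46 and 22.4 CPM with AZT, against 2.524, 2.454 and 2.158 CPM with DMSO, with little spread in either group. Its log2 fold change was 3.20 (SE 0.46, adjusted p = 4.4e-06). The level of col-125 was 27.76, 24.07 and 18.23 CPM with AZT against 3.617, 2.454 and 2.27 CPM with DMSO, again without overlap (log2 fold change 3.07, SE 0.44, adjusted p = 4.8e-06). It shares exon sequence with best-7 on the other strand. For col-65, 35.07, 29.64 and 32.64 CPM with AZT stood against 6.688, 5.119 and 4.279 CPM with DMSO, and for col-104 21.67, 19.8 and 16.34 CPM stood against 5.131, 3.215 and 4.837 CPM. Both genes separated the groups, with log2 fold changes of 2.60 for col-65 and 2.13 for col-104.

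The steepest rises were those of scarce genes. The largest was that of col-138, which had 0.9265, 1.411 and 1.082 CPM with AZT and 0.04206, 0.0423 and 0.03721 CPM with DMSO. This was 90 counts over the AZT libraries against 3 over the DMSO libraries, a ratio of 28.05 with a 95% counting interval of 9.296 to 138.6. Next by the same rule came col-75 (log2 fold change 3.56), col-115 (3.39), col-186 (3.32) and col-177 (3.25). Of these, col-115 was the most abundant, with 7.804, 10.27 and 8.421 CPM with AZT against 0.5889, 0.8038 and 1.116 CPM with DMSO, without overlap. It overlaps rig-4 on the other strand. The call of col-75 was lost without DMSO 72h replicate 1 (adjusted p = 0.013), and the calls of col-115, col-138, col-177 and col-186 held with any library left out.

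**Figure D3:**
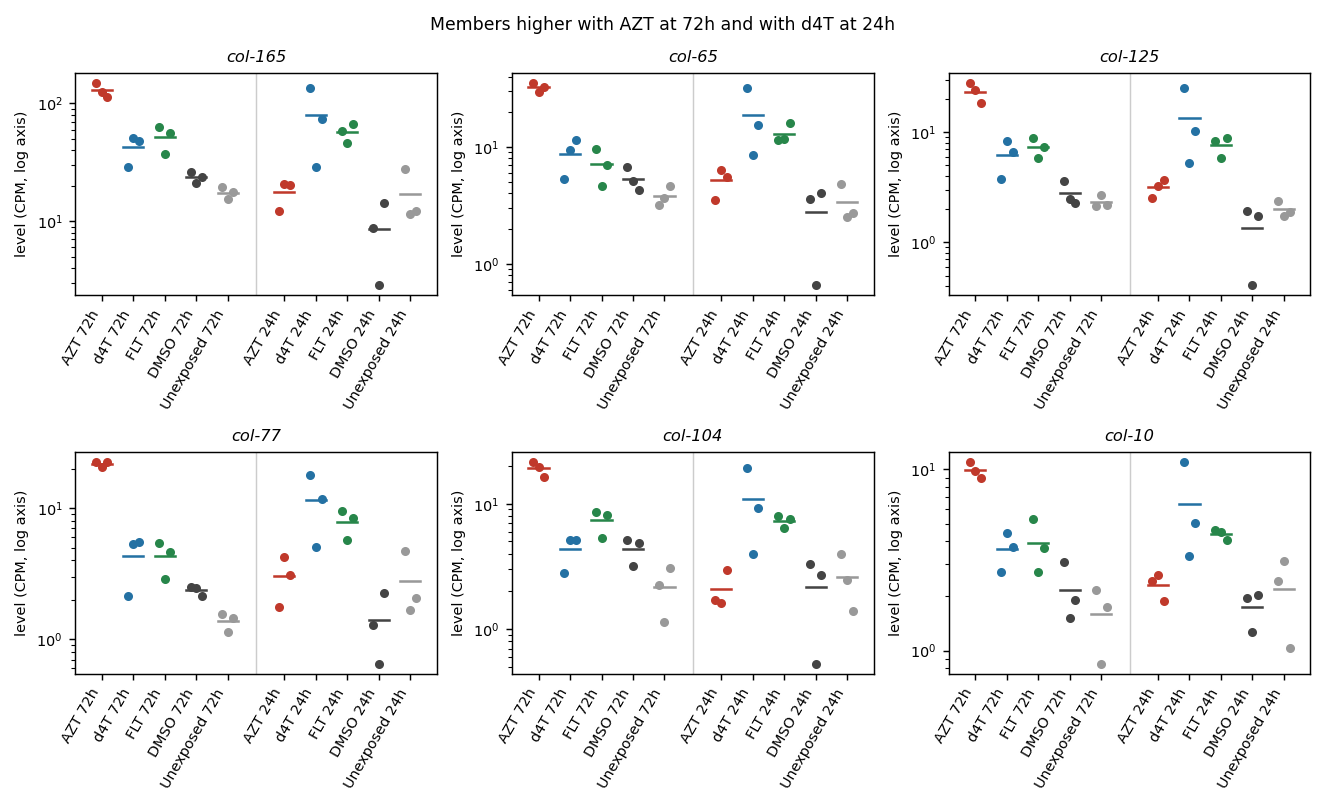
Level in CPM (log axis) of col-165, col-65, col-125, col-77, col-104 and col-10 in each library, by group, with 72h left of 24h. Points are libraries and lines are means of 3. At 72h AZT stands above every other group in all 6 panels, and at 24h d4T and FLT stand above DMSO, with d4T replicate 2 the lowest of its group.

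Of the members needed for long life, col-10 (chromosome V from 9164292 to 9165307) had 11.01, 9.762 and 9.0 CPM with AZT at 72h, against 3.07, 1.523 and 1.898 CPM with DMSO. The groups were well apart, and col-10 rose by 2.20 on the log2 scale (SE 0.40, adjusted p = 6.9e-05). The pair col-12 and col-13 are neighbours on chromosome V and near copies, so their counts are uncertain. At 72h col-13 had 39 counts over the AZT libraries and 2 over the DMSO libraries, a ratio of 18.23 (95% counting interval 4.72 to 155.9). Its call was lost with any of the 6 libraries left out, with an adjusted p of up to 0.027. The level of col-12 was 3.279, 3.881 and 3.361 CPM with AZT against 0.7571, 0.8884 and 0.4093 CPM with DMSO, and it rose by 2.35 on the log2 scale. Without DMSO 72h replicate 3 the adjusted p of col-12 was 0.017. The gene col-120 had 0.3207, 0.6273 and 0.5794 CPM with AZT and 0.3365, 0.2961 and 0.6325 CPM with DMSO, and the groups overlapped.

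Of the 10 abundant members only col-181 and col-184 passed the test with AZT at 72h. The level of col-184 (chromosome X from 13469455 to 13470409) was 1225, 1023 and 984.8 CPM with AZT, against 703.1, 595.6 and 454.4 CPM with DMSO. The groups did not overlap and the log2 fold change was 0.88 (SE 0.23, adjusted p = 0.0019), but the call was lost when AZT 72h replicate 1 was left out, or DMSO 72h replicate 3 (adjusted p of up to 0.018). That of col-181 was 1947, 1881 and 1849 CPM against 1231, 1036 and 788.1 CPM, a log2 fold change of 0.89. Its call did not hold with any of the 6 libraries left out (adjusted p 0.011 to 0.039). The median over the 10 abundant genes was 0.58, and over the 99 other members tested it was 1.76.

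**Figure D4:**
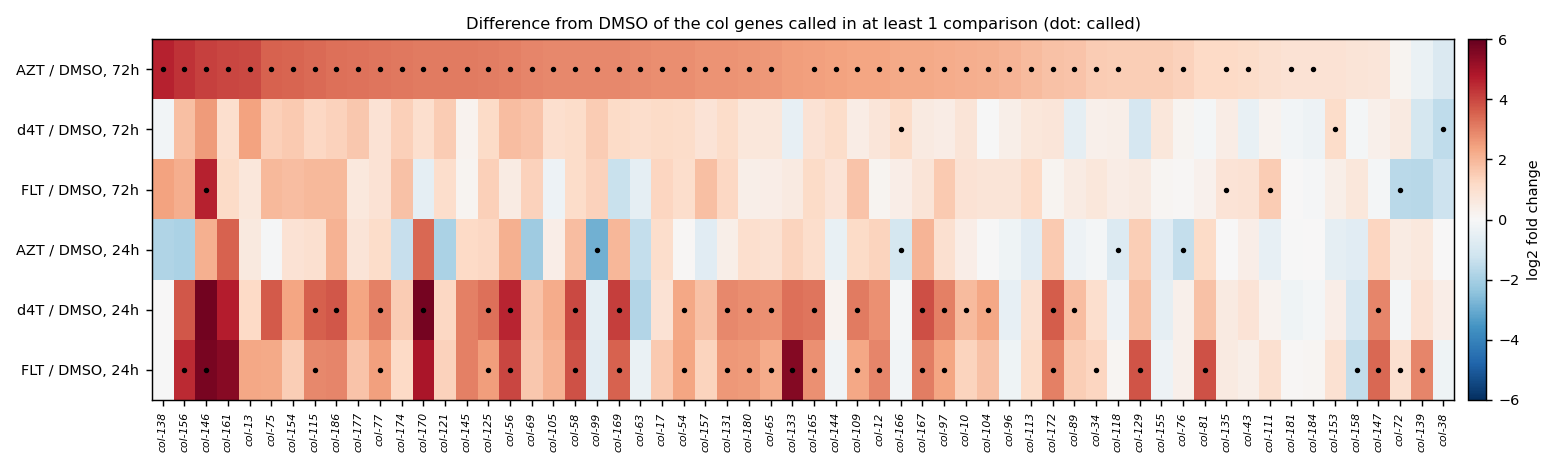
Log2 fold change over DMSO (colour) of the 60 col genes called in at least 1 of the 6 comparisons, ordered by the AZT difference at 72h. Rows run from AZT, d4T and FLT at 72h to the same at 24h, and a dot marks a call. The AZT row at 72h is red almost throughout with 50 dots, and the AZT row at 24h holds 4 dots, all of lower levels.

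At 72h the other analogues changed few members. With d4T, 2 rose and 1 fell, where 5.82% of all genes rose and 5.86% fell; the counts without adjustment (p under 0.05) were 17 and 2. The risers were col-153 and col-166, each with a log2 fold change of 1.12, and the L4 collagen col-38 fell. Its level was 0.4595, 0.9148 and 1.189 CPM with d4T against 3.281, 2.411 and 1.786 CPM with DMSO, so it was low in both groups and lower in every d4T library (log2 fold change -1.53, SE 0.34, adjusted p = 0.0024). None of these 3 calls held with every library left out; that of col-38 was lost without d4T 72h replicate 1 or 2 or DMSO 72h replicate 1 (adjusted p of up to 0.021), and those of col-166 and col-153 reached 0.032 and 0.046. The level of col-166 was 20.06, 19.01 and 14.3 CPM with d4T against 10.68, 6.6 and 7.218 CPM with DMSO, without overlap.

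With FLT at 72h, 3 members rose and 1 fell, where 4.52% of all genes rose and 3.54% fell. Without adjustment 27 were higher and 3 lower, and the median of the members was 0.55 beside 0.01 over all genes. The fall was that of col-72 (chromosome II from 3520703 to 3524197, overlapping clec-126 on the other strand). It had 4.364, 3.635 and 2.64 CPM with FLT against 10.26, 8.63 and 13.43 CPM with DMSO. All FLT libraries were lower, the log2 fold change was -1.61 (SE 0.25, adjusted p = 8.7e-05) and the call held with any library left out. The risers were col-146 (log2 fold change 4.63), col-111 (1.51) and col-135 (0.81). Of these col-135 had 17.98, 17.58 and 15.09 CPM with FLT against 9.295, 10.07 and 9.562 CPM with DMSO, without overlap, yet its call was lost with any library left out (adjusted p 0.012 to 0.037). That of col-111 was lost without DMSO 72h replicate 3 or FLT 72h replicate 1 (up to 0.017), and that of col-146, with under 1 CPM in every library, without FLT 72h replicate 3 or any DMSO library (up to 0.023).

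After 24h of AZT the picture was another one. 0 members rose and 4 fell (3.67%), where 1.07% of all genes rose and 9.15% fell. Without adjustment (p under 0.05) edgeR gave 12 higher and 12 lower members, and by DESeq2 1 was higher and 6 were lower. The 4 were col-99, col-76, col-166 and col-118, and each of them had risen with AZT at 72h.

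The largest fall was that of col-99 (chromosome IV from 137974 to 147919), the neuronal and muscle collagen. It had 2.115, 3.714 and 4.697 CPM with AZT at 24h, against 42.44, 20.82 and 15.77 CPM with DMSO. At 72h it had 22.77, 20.39 and 16.8 CPM with AZT, against 2.944, 2.454 and 2.716 CPM with DMSO. The groups did not overlap at either time and lay in opposite order: the log2 fold change was 2.88 at 72h (SE 0.49, adjusted p = 2.7e-05) and -2.89 at 24h (SE 0.49, adjusted p = 3.2e-04). The DMSO libraries themselves differed from the unexposed ones, which had 2.727, 1.384 and 2.413 CPM at 24h, close to the AZT values. Its exons overlap daf-1 on the other strand.

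The same order held for the others. The level of col-76 (chromosome II from 8204339 to 8207495) was 66.28, 62.26 and 52.15 CPM with AZT at 72h, against 24.19, 21.03 and 23.4 CPM with DMSO. At 24h it was 14.02, 16.68 and 19.14 CPM with AZT, against 52.0, 40.67 and 43.48 CPM with DMSO. In unexposed worms at 24h it was 14.13, 13.36 and 11.62 CPM. Thus col-76 was high in the DMSO libraries of 24h and not in the AZT or unexposed ones. The level of col-166 (chromosome X from 6280016 to 6280921) was 48.89, 39.2 and 32.06 CPM with AZT at 72h against 10.68, 6.6 and 7.218 CPM with DMSO. At 24h it was 14.14, 15.95 and 17.69 CPM with AZT against 41.88, 32.53 and 24.4 CPM with DMSO. That of col-118 was 23.73, 16.98 and 16.88 CPM with AZT at 72h against 9.001, 6.219 and 5.581 CPM with DMSO, and at 24h 18.37, 16.31 and 17.69 CPM with AZT against 30.54, 33.39 and 29.89 CPM with DMSO. For both genes the groups were apart at both times. At 24h the calls of col-76 and col-118 were lost without AZT replicate 1 or 2, and also without DMSO replicate 1 for col-76 and DMSO replicate 2 for col-118 (adjusted p of up to 0.026 and 0.017). That of col-166 held only without DMSO replicate 3 (up to 0.063), and that of col-99 held with any library left out. With unexposed worms as control, 0 of the 4 were called lower with AZT at 24h.

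**Figure D5:**
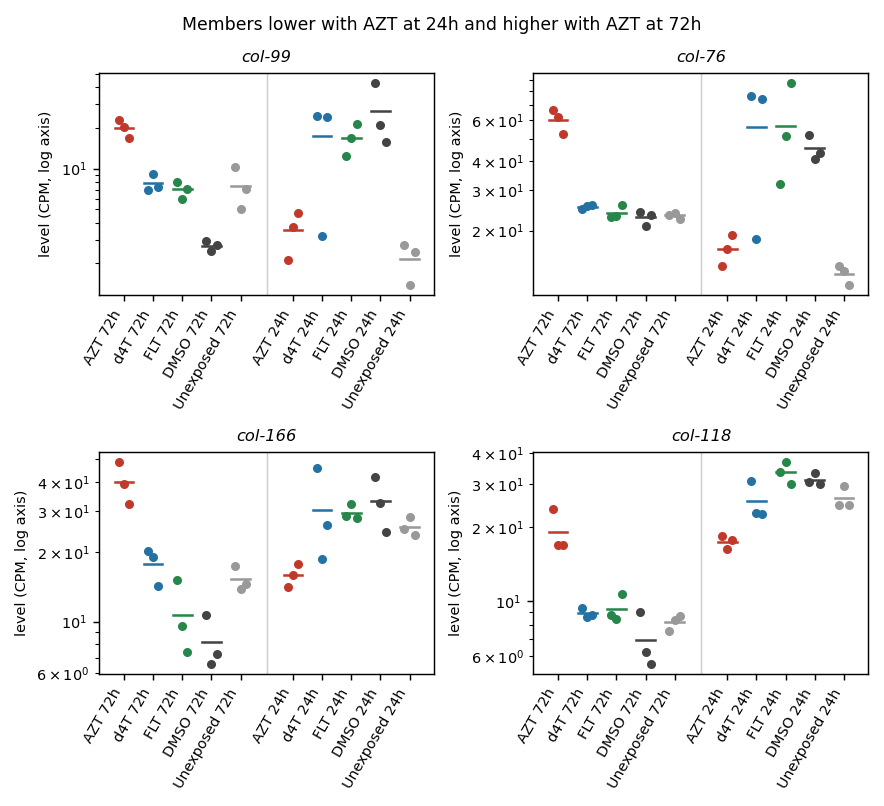
Level in CPM (log axis) of col-99, col-76, col-166 and col-118 in each library, by group, with 72h left of 24h. Points are libraries and lines are means of 3. AZT lies above DMSO at 72h and below it at 24h in all 4 panels, and for col-99 and col-76 the unexposed worms of 24h lie near AZT.

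The change of the AZT effect between the times was tested directly. The AZT effect was higher at 72h than at 24h for 23 members and lower for 0, where 29.3% of all genes were higher and 23.7% lower. DESeq2 gave the same counts, and without adjustment edgeR gave 38 and 0. The differences of the 2 effects were 6.43 for col-138 (SE 1.11, adjusted p = 2.9e-05), 5.78 for col-99 (SE 0.69, adjusted p = 5e-07) and 5.04 for col-69 (SE 1.21, adjusted p = 8.7e-04) on the log2 scale. All 3 had positive AZT effects at 72h and negative ones at 24h. The call of col-69 was lost without DMSO 24h replicate 1 (adjusted p = 0.015). The count was 15 without AZT 72h replicate 2 or 3, its lowest with a library left out.

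After 24h of d4T, 21 members rose and 0 fell, where 4.07% of all genes rose and 2.24% fell. Without adjustment 46 were higher and 2 lower, and by DESeq2 27 and 0. The median of the members was 0.82, beside 0.02 over all genes. The libraries did not overlap those of DMSO for 20 of the 21, and for 476 of the 653 genes that rose in all. The rises were uneven between libraries, since in 20 of the 21 genes replicate 2 was the lowest d4T library. Replicate 1, with 4.99% of its counts on ribosomal RNA genes, was the highest in 20 of the 21. Replicate 2 was the highest for all 10 abundant genes. The part of ribosomal RNA in this order was not tested. For col-165 the d4T libraries had 134.6, 28.89 and 73.74 CPM, against 8.843, 2.864 and 14.29 CPM with DMSO. Even the lowest d4T library was above the highest DMSO library, and the log2 fold change was 3.19 (SE 0.47, adjusted p = 9.2e-05). For col-125 they had 25.01, 5.213 and 10.25 CPM against 1.947, 0.4091 and 1.734 CPM with DMSO, also without overlap (log2 fold change 3.32, SE 0.47, adjusted p = 5.5e-05).

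By the rule for naming, the steepest of these rises were those of col-169 (log2 fold change 4.16), col-58 (3.97), col-167 (3.87), col-172 (3.64) and col-115 (3.59). Of these col-172 had 3.689, 0.8873 and 2.36 CPM with d4T against 0.2225, 0.04091 and 0.289 CPM with DMSO, without overlap. For col-10 the libraries had 10.96, 3.327 and 5.069 CPM with d4T against 1.947, 1.268 and 2.023 CPM with DMSO, and the gene rose by 1.89 on the log2 scale. Leaving out DMSO 24h replicate 1 or 2 or d4T 24h replicate 1 ended its call (adjusted p of up to 0.064). The calls of col-167 and col-169 were lost without d4T 24h replicate 1 or DMSO 24h replicate 2, and for col-169 also without DMSO 24h replicate 1 (up to 0.018 and 0.014). Those of col-58, col-115, col-125, col-165 and col-172 held with any library left out. Of the 21 rises, 9 did so, and the count was 9 without d4T 24h replicate 1, 35 without d4T 24h replicate 2, 13 without DMSO 24h replicate 1 and 10 without DMSO 24h replicate 2. In a fit of the d4T and DMSO libraries of 24h alone 0 members rose and 0 fell. With unexposed worms as control 25 members rose with d4T at 24h, and 15 of these were among the 21. The share of all genes was not counted with single libraries left out, in the fit of 24h alone or against unexposed worms. These counts are thus not set against it.

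After 24h of FLT, 25 members rose and 1 fell, where 5.74% of all genes rose and 9.39% fell. Without adjustment 52 were higher and 1 lower, and by DESeq2 28 and 1. The median of the members was 1.27, beside 0.15 over all genes, and 105 of the 109 members pass the filter without the FLT 24h libraries, with all of these calls among them. For 22 of the 25 the libraries did not overlap, and for 912 of the 921 genes that rose in all. The level of col-165 was 57.83, 46.15 and 67.13 CPM with FLT, against 8.843, 2.864 and 14.29 CPM with DMSO. The FLT libraries were alike and all higher (log2 fold change 2.72, SE 0.46, adjusted p = 2e-04). The steepest rises named by the rule were those of col-58 (log2 fold change 3.84), col-81 (3.83), col-129 (3.76), col-147 (3.43) and col-167 (3.05). Of these col-58 had 2.215, 1.73 and 2.578 CPM with FLT against 0, 0.08183 and 0.3303 CPM with DMSO, without overlap, and its call held with any library left out. The call of col-147 was lost without FLT 24h replicate 1 or DMSO 24h replicate 2 (adjusted p of up to 0.026), and that of col-167 with 4 of the 6 libraries left out (up to 0.034). The single fall was that of col-158, with 6.121, 3.206 and 2.739 CPM with FLT against 12.13, 11.21 and 10.65 CPM with DMSO (log2 fold change -1.50, SE 0.33, adjusted p = 0.0018). Its groups did not overlap, but its call was lost without FLT 24h replicate 3 (adjusted p = 0.015), and its exons overlap nphp-4 and D2023.15 on the other strand. The count of rises was 13 without DMSO 24h replicate 1, 10 without DMSO 24h replicate 2 and 15 without FLT 24h replicate 3. In a fit of the FLT and DMSO libraries of 24h alone it was 2. With unexposed worms as control 18 members rose with FLT at 24h, and 11 of these were among the 25. For these fits too the share of all genes was not counted.

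Some of the FLT rises rested on replicate 1. For col-81 the FLT libraries had 80.51, 5.903 and 6.176 CPM, against 1.669, 2.25 and 2.519 CPM with DMSO. For col-129 they had 93.1, 7.175 and 5.048 CPM, against 2.503, 2.578 and 2.642 CPM with DMSO. In both genes replicate 1 was far above the others, which were still above DMSO. For col-139 the other libraries, at 5.903 and 5.585 CPM beside 93.22 CPM, lay within the DMSO values of 6.786, 3.396 and 3.757 CPM. Without FLT 24h replicate 1 the adjusted p was 0.061 for col-129 and 0.62 for col-139, while col-81 kept its call. In all, 12 members reached at least 5 CPM in this library at over 5 times the next FLT library. In the library labelled d4T 24h replicate 2 there were 4 such members, and FLT 72h replicate 1 held 1, col-93.

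Without d4T 24h replicate 2 and FLT 24h replicate 1, a fit chosen after seeing the data, 110 members were tested and the counts at 24h changed. With d4T, 37 members rose and 19 fell, where 16.2% of all genes rose and 22.4% fell. All 21 earlier rises remained, and 9 of the 10 abundant genes were among those that fell. With FLT, 28 rose and 15 fell, where 11.6% of all genes rose and 15.1% fell. Here 19 of the 25 earlier rises remained, and 7 of the 10 abundant genes fell. For example, col-19 had a log2 fold change of -1.29 with FLT in this fit (adjusted p = 7.2e-06), and col-165 had 2.71. With either drug, the share of the 110 members that fell was below that of all genes, and the share that rose was above it. FLT 24h replicate 1 was left out because its col levels stood apart, so the counts in this fit depend in part on that choice. The shares are given for description only.

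Members called with d4T or FLT at 24h were set against those called with AZT at 72h, comparisons with no library in common. Of the 21 rises with d4T at 24h, 20 were also among the 50 with AZT at 72h, which is 95.2% of the first list and 40% of the second; the exception was col-147. Over all genes tested, 497 of the 653 rises with d4T at 24h were shared in this way, or 76.1% and 11.4% of the 4371 with AZT at 72h. Of the 25 rises with FLT at 24h, 19 were shared, or 76% and 38%, and over all genes 540 of 921, or 58.6% and 12.4%. The 6 others were col-72, col-81, col-129, col-133, col-139 and col-147. A group of neighbours on chromosome X took part: col-167 and col-169, which lie from 6323488 to 6324393 and from 6329160 to 6330062, rose in all 3 comparisons. The calls of col-167 were lost with several single libraries left out in each (adjusted p of up to 0.034).

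The solvent alone gave few calls among the members. In DMSO against unexposed worms at 72h, 1 rose and 2 fell, where 5.71% of all genes rose and 6.01% fell. These were col-168 higher and col-153 and col-183 lower, and each call was lost with any library left out (adjusted p of up to 0.045). At 24h, 2 rose and 1 fell, where 9.01% of all genes rose and 3.56% fell. Without adjustment 5 were higher and 20 lower, and a fit of these groups alone gave 15 lower, both without a counted share of all genes. The median of the members was -0.59 beside 0.04 over all genes. The risers were col-99 (log2 fold change 3.59, SE 0.51, adjusted p = 3.4e-05) and col-76 (1.80), the same genes that were lower with AZT than with DMSO at 24h, and both calls held with any library left out. The fall was that of col-141, with 0.05562, 0.2455 and 0.7845 CPM in DMSO worms against 2.045, 1.773 and 1.475 CPM in unexposed worms (log2 fold change -2.22). Of the 6 libraries, only DMSO replicate 3 could be left out without loss of that call (up to 0.048).

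The analogues were compared directly, in 6 pairs at the same dose and time. At 72h AZT was higher than d4T for 26 members and lower for 0, where 8.05% of all genes were higher and 3.98% lower; the counts without adjustment were 63 and 1 by edgeR, and DESeq2 called 31 and 0. With p-values adjusted over all genes and the 6 pairs together, 28 were higher and 0 lower. Against FLT at 72h, AZT was higher for 29 (26.61%) and lower for 1, where 22.2% of all genes were higher and 18.3% lower. The unadjusted counts were 48 and 6, and 22 and 1 held over the 6 pairs. At 24h AZT was lower than d4T for 26 members (23.9%) and higher for 0, where 20.0% of all genes were lower and 9.49% higher; the counts without adjustment were 45 and 2, DESeq2 called 33 and 0, and 24 and 0 held over the 6 pairs. Against FLT at 24h, AZT was lower for 24 (22.02%) and higher for 0, where 23.1% of all genes were lower and 17.4% higher; the unadjusted counts were 44 and 1, DESeq2 called 26 and 0, and 20 and 0 held over the 6 pairs. At 24h the shares of members that were lower were thus near those of all genes. At 72h the share higher with AZT than with FLT was little above that of all genes.

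With single libraries left out these counts changed, and the share of all genes was not counted in those fits. Members higher with AZT than with d4T at 72h numbered 6, 7 and 8 without d4T 72h replicates 1, 2 and 3, 7 and 11 without AZT 72h replicates 1 and 2, and 18 without AZT 72h replicate 3. Those higher with AZT than with FLT at 72h numbered 12, 19 and 19 without AZT 72h replicates 1, 2 and 3 and 18, 11 and 15 without FLT 72h replicates 1, 2 and 3. At 24h the members lower with AZT than with d4T numbered 2, 10 and 13 without AZT 24h replicates 1, 2 and 3 and 2 and 7 without d4T 24h replicates 1 and 3. Without d4T 24h replicate 2 they numbered 38, and 18 were higher. Those lower with AZT than with FLT numbered 14 and 15 without AZT 24h replicates 1 and 2 and 13 without FLT 24h replicate 3, and without FLT 24h replicate 1 there were 17 lower and 11 higher.

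Single genes show the sizes. The level of col-138 at 72h gave 90 counts with AZT and 3 with d4T, a ratio of 31.8 (95% counting interval 10.54 to 157.1). Of the abundant genes, col-184 had 1225, 1023 and 984.8 CPM with AZT against 517.6, 403.8 and 487 CPM with d4T, without overlap (log2 fold change 1.20, SE 0.23, adjusted p = 7.4e-04). Its adjusted p was 0.010 without d4T 72h replicate 2. Against FLT, col-169 was higher with AZT at 72h by 4.20 on the log2 scale, with 1.604, 1.882 and 1.622 CPM against 0.06514, 0 and 0.1721 CPM with FLT. The one called lower with AZT at 72h was col-86, which had 0.2138, 0.2352 and 0.1545 CPM against 1.107, 0.6763 and 0.6312 CPM with FLT, and its call was lost with 4 of the 6 libraries left out (adjusted p of up to 0.029). At 24h col-121 had 2.841, 2.84 and 5.399 CPM with AZT against 14.98, 22.13 and 71.11 CPM with FLT, all FLT libraries being higher (log2 fold change -3.27, SE 0.59, adjusted p = 1.2e-04). It overlaps daf-15 on the other strand.

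Between d4T and FLT few members differed. At 72h 1 was higher and 2 lower with d4T, where 5.76% of all genes were higher and 5.43% lower, and 1 and 3 over the 6 pairs. At 24h 0 were higher and 1 lower, where 4.38% were higher and 1.45% lower; the unadjusted counts were 0 and 11, DESeq2 called 0 and 2, and 0 and 2 held over the 6 pairs. The gene that differed at both times was col-72. At 72h it had 18.53, 15.32 and 12.55 CPM with d4T against 4.364, 3.635 and 2.64 CPM with FLT, a log2 fold change of 2.13 (95% interval 1.60 to 2.65). At 24h it had 5.861, 5.657 and 9.17 CPM with d4T against 12.07, 18.42 and 13.21 CPM with FLT, a log2 fold change of -1.07 (95% interval -1.57 to -0.58). The groups did not overlap at either time, but the call at 24h was lost without d4T 24h replicate 1 or FLT 24h replicate 2 (adjusted p of up to 0.05). For other members the intervals were wide: that of d4T over FLT at 24h was -0.41 to 1.35 for col-165 and -0.32 to 1.42 for col-77 on the log2 scale, so that for both genes a level 2-fold higher with d4T lay within the interval. The lower genes at 72h were col-43 and col-111, each at -1.30; leaving out d4T 72h replicate 1 or 2 or FLT 72h replicate 3 ended the call of both (up to 0.027), and for col-111 so did d4T 72h replicate 3 or FLT 72h replicate 1.

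In the controls, levels changed with the time since L4. In unexposed worms 2 members were higher and 20 lower at 72h than at 24h, where 8.75% of all genes were higher and 8.94% lower. With DMSO 5 were higher (4.59%) and 14 lower (12.84%), where 13.9% of all genes were higher and 19.2% lower. Both member shares with DMSO were thus below those of all genes. The controls shared no library, and 10 members fell in both, which is 50% of the 20 and 71.4% of the 14. Over all genes tested 676 fell in both, 47.1% of 1435 and 21.98% of 3076. Other genes fell with them in DMSO worms: 15 of 19 moulting genes, 7 of 11 cuticle assembly genes and all 6 yolk genes. So did 5 of 9 muscle genes and 2 of 3 basement membrane collagens, with 0 higher in any of these lists. In unexposed worms 2 moulting genes were higher and 1 lower, and 1 assembly gene, 3 yolk and 5 muscle genes fell. Their part in the col values was not tested. The adult collagen col-19 had 168.3, 148.1 and 160.7 CPM at 72h against 913.8, 1061 and 1012 CPM at 24h in unexposed worms, and fell by 2.65 on the log2 scale. In DMSO worms it fell by 2.13. In both controls the times were far apart. The abundant col-20 had 122.5, 94.47 and 86.58 CPM at 72h against 1359, 1550 and 1426 CPM at 24h in unexposed worms, a log2 fold change of -3.84, and -2.74 in DMSO worms. Of the 10 abundant genes 9 fell in unexposed and 4 in DMSO worms. A scarcer gene with little spread was col-155, with 2.482, 2.115 and 1.786 CPM at 72h against 24.7, 23.98 and 22.83 CPM at 24h in DMSO worms (log2 fold change -3.48, SE 0.24, adjusted p = 1.4e-10).

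The steepest fall in unexposed worms was that of col-93, with 5.136, 3.627 and 3.982 CPM at 72h against 275.9, 365.1 and 335.4 CPM at 24h (log2 fold change -6.26, SE 1.30, adjusted p = 6.7e-04). In DMSO worms it had 10.68, 8.165 and 6.251 CPM at 72h against 62.63, 83.14 and 207.3 CPM at 24h. There its log2 fold change of -3.82 lost its call with any library left out (adjusted p of up to 0.04). Its neighbour on chromosome III, col-94, fell by 4.53 in unexposed worms. By contrast, col-183 had 3.465, 4.771 and 3.591 CPM in unexposed worms at 72h and no count at 24h. With 3 counts over the 24h libraries taken as the floor, it was at least 88.65-fold higher at 72h. In DMSO worms it had 63 counts at 72h and 1 at 24h, a ratio of 56.51 (95% counting interval 9.781 to 2267). It overlaps F02D10.10 on the other strand. In DMSO worms col-147 and col-68 were also higher at 72h, with log2 fold changes of 3.53 and 1.47. Without DMSO 24h replicate 3 the count of members higher at 72h in DMSO worms was 15.

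For d4T and FLT few members had an effect that differed between the times. With d4T 1 was higher and 2 lower at 72h than at 24h, where 4.93% of all genes were higher and 3.08% lower. With FLT 1 was higher and 5 lower, where 6.17% were higher and 3.56% lower. The lower ones with FLT included col-72 (difference of the effects -2.57, SE 0.35, adjusted p = 1.5e-05), which held with any library left out. The call of col-147 was lost with 7 of 12 libraries left out (adjusted p of up to 0.066), FLT 24h replicate 1 among them, and that of col-158, the higher one, without FLT 72h replicate 3 (0.012). Without d4T 24h replicate 2 the count of members lower with d4T was 12.

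Other genes of the cuticle moved as follows. With AZT at 72h 27.2% of all genes tested rose and 21.6% fell. Of 19 cuticle collagens with other names 15 were tested, and with AZT at 72h 10 of them rose and 0 fell. Among them sqt-3, which shapes the body, rose by 2.91 and dpy-2, a collagen of the annular furrows, by 3.07 on the log2 scale. Of 11 cuticle assembly genes 8 rose and 1 fell, with rises of 1.58 for bli-3, the dual oxidase of tyrosine cross-linking, and 1.56 for the peroxidase mlt-7. These genes encode enzymes that make or cross-link cuticle collagens and also proteins that are no enzymes, such as tsp-15 and doxa-1. Of 19 moulting regulators and apical matrix genes 16 rose and 0 fell, including nas-37 (2.39), a protease of the moult. The basement membrane collagens emb-9 (1.77) and let-2 (2.05) rose too. With AZT at 24h these lists gave falls: 0 rose and 10 fell of the moulting genes, and 0 and 5 of the assembly genes. Of the other cuticle collagens 0 rose and 2 fell. The log2 fold changes were -3.30 for the matrix gene fbn-1 and -2.02 for the furrow collagen dpy-7. Among all genes 1.07% rose and 9.15% fell with AZT at 24h. With DMSO against unexposed worms at 24h, 9 of the moulting genes and 5 of the other cuticle collagens rose and 0 of either fell. Here 9.01% of all genes rose and 3.56% fell.

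With d4T at 72h, 9 moulting genes and 5 assembly genes rose and 0 fell, and the other cuticle collagens gave no call. Among all genes 5.82% rose and 5.86% fell. With FLT at 72h 2 of each of these lists of moulting genes and assembly genes rose, where 4.52% of all genes did. With d4T at 24h 4.07% of all genes rose and 2.24% fell, and with FLT at 24h 5.74% and 9.39%. At 24h the other cuticle collagens gave no call with d4T or FLT, with medians of 1.15 and 1.05. Of the assembly genes 0 were called with d4T (median -0.01). With FLT 0 of them rose and 2 fell, sup-17 (-1.06) and bli-4 (-0.51), with a median of 0.00. Of the moulting genes 1 rose and 0 fell with d4T (median 0.13), and with FLT 0 rose and 1, nhr-23 (-0.93), fell (median 0.08). The summed level of the other cuticle collagens was 1876, 271.7 and 1524 CPM with d4T at 24h. It was 627.3, 859.7 and 1988 CPM with FLT at 24h, and 774.2, 445.8 and 494 CPM with DMSO at 24h. As for the col genes that rose, d4T 24h replicate 2 was the lowest of its group.

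Markers of other tissues moved with these results. With AZT at 72h 14 of 18 oocyte and germline genes fell and 0 rose, and their summed level was 4587 to 6241 CPM, against 12752 to 13440 CPM with DMSO. All 6 yolk protein genes and 8 of 9 muscle genes rose. With AZT at 24h 0 germline genes were called, and 4 of the 6 yolk genes fell. With d4T at 24h the summed germline level was 4645, 17954 and 4831 CPM, against 6415, 9329 and 9892 CPM with DMSO, so replicate 2 was the highest where it was the lowest for the raised col genes. With FLT at 24h it was 4520, 3332 and 1817 CPM, below all DMSO libraries. Here 9 of 18 fell, beside 9.39% of all genes. Sperm genes, 32 in number with 25 tested, summed to 48.5 to 64.0 CPM with AZT at 72h against 20.7 to 48.7 CPM with DMSO at 72h, and 0 were called. At 72h msp-31, msp-33, msp-45 and msp-74 had no count in either group, nor msp-79 with AZT. Of the 13 early embryo genes 9 were tested, and AZT at 72h raised 3, while FLT at 72h raised 1 and lowered 5. Among all genes, FLT at 72h raised 4.52% and lowered 3.54%. In DMSO against unexposed worms 19 of the sperm genes rose at 72h and 3 at 24h, where 5.71% and 9.01% of all genes did. With d4T at 72h 8 sperm genes fell and 0 rose, and with FLT at 72h 1 rose and 2 fell. Among all genes, d4T at 72h raised 5.82% and lowered 5.86%. Between analogues at 72h, 22 sperm genes were higher with AZT than with d4T and 0 lower, and 21 were higher and 1 lower than with FLT. Among all genes, 8.05% were higher than with d4T and 22.2% higher than with FLT. At 24h, relative to d4T, 13 sperm genes were lower and 0 higher in the AZT libraries, and relative to FLT 18 were lower and 1 higher. Among all genes, 20.0% and 23.1% were lower. Germline genes at 24h were higher with AZT than with FLT for 17 of 18, and with d4T than with FLT for 8. The shares of all genes that were higher were 17.4% and 4.38%. The part of these tissues in the col results was not tested.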

How the data were processed

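RNA-seq read counts per gene were taken as deposited. Per the labels' processing notes and the study's methods, the authors called bases with CASAVA 1.8.2, trimmed reads with Trimmomatic 0.32, aligned them to WBcel235 with TopHat2 2.0.8 and Bowtie2 2.1.0, and counted them per gene with HTSeq, whose version and strand setting are not given in the sources used here. The deposited counts are not normalized, and replicates were not pooled. Entries that name no gene, 10.5% to 26.5% of each library's total, were left out of library sizes; non-unique reads made up 7.53% to 23.6%.

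Levels are CPM on library sizes scaled by the trimmed mean of M-values. Genes with at least 0.417 CPM in 3 libraries, by the filter for a minimum count of 10 and a total of 15, were tested with edgeR 4.0.16 (R 4.3.3, limma 3.58.1) in 1 robust quasi-likelihood fit of all 30 libraries as 10 groups, with 20 residual degrees of freedom. P-values were adjusted by the Benjamini-Hochberg method over 16048 genes and called under 0.01, all two-sided. The scripts were tested on simulated data. Alternatives were DESeq2 1.42.0, other scalings, no filter, a replicate block, the compared groups alone, unexposed worms as control and each library left out; a fit without d4T 24h replicate 2 and FLT 24h replicate 1 was added after seeing the data. The 95% counting intervals cover counting error only.

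The col genes and the other lists were chosen with earlier results of these data known. Named genes are those with a known stage, place or effect, the 5 most abundant per kb, and per comparison with DMSO or of DMSO with unexposed worms the 5 largest called rises and falls (3 elsewhere) with a group mean of at least 1 CPM and, except for interactions, no overlap. Of other lists, the 2 smallest adjusted p-values per direction were named. Other members named (col-65, col-86, col-104, col-125, col-133, col-146, col-165, col-168 and the abundant genes beyond 5) were chosen after their values were seen. Planned sequence features were not run. Gene coordinates are from Ensembl release 115.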

Additional observations from a re-analysis of the deposited data

Results flagged for a closer look

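The effects of an analogue at 72h and at 24h differed by the interaction test for the following members. For AZT, 23 members (21.1%) had a higher effect at 72h, below the 29.3% of all genes, and the differences of the effects on the log2 scale were 6.43 for col-138, 5.78 for col-99 and 5.04 for col-69.

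For d4T, 1 member had a higher and 2 a lower effect at 72h, where 4.93% of all genes were higher and 3.08% lower. The difference was 1.22 for col-155, whose call was lost with 11 of 12 libraries left out, -1.94 for col-38 (6 of 12) and -2.91 for col-172 (10 of 12).

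For FLT, 1 member had a higher and 5 a lower effect at 72h, where 6.17% of all genes were higher and 3.56% lower. The difference was 2.19 for col-158, -3.57 for col-81, -4.58 for col-139 and -3.54 for col-147. The calls of col-81 and col-139 were among those lost without FLT 24h replicate 1, with adjusted p-values of up to 0.053 and of 0.018 by edgeR. The call of col-147 was lost with 7 of 12 libraries left out (adjusted p of up to 0.066 by edgeR) and that of col-158 without FLT 72h replicate 3 (0.012). All these tests share the DMSO libraries.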

How the results depend on the processing

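Of the values of named members against DMSO under other settings, 3551 stayed on the same side of the threshold. A further 102 passed it only there, 178 no longer passed it and 5 changed sign where a call was involved. Changes of sign between values that were not called are counted among the 3551. With unexposed worms as control, the log2 fold change at 24h was 0.35 for col-76 and 0.70 for col-99 with AZT, and for col-99 2.99 with d4T and 2.95 with FLT; col-93 with FLT at 24h was -3.54 without d4T 24h replicate 2 and FLT 24h replicate 1. Low levels limit the calls, since 47 members were too low to test. Moved counts follow as higher and lower members, and the cause was not tested. Shares of all genes were not counted in these fits. The exception was d4T and FLT at 24h without d4T 24h replicate 2 and FLT 24h replicate 1.

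In fits of the compared groups alone, AZT at 24h gave 2 and 8, d4T at 24h 0 higher, FLT at 24h 2 and 0, AZT at 72h 1 lower, d4T at 72h 9 and 6, FLT at 72h 12 and 2, and DMSO against unexposed 15 lower at 24h and 6 and 6 at 72h. By DESeq2, AZT gave 1 higher at 24h and 2 lower at 72h, FLT at 72h 7 and 2, DMSO against unexposed at 24h 3 lower, d4T against FLT at 24h 2 lower, AZT against FLT at 72h 3 lower, DMSO 72h against 24h 10 higher, the d4T interaction 12 lower and the FLT interaction 2 higher. Against unexposed worms, AZT gave 0 lower at 24h and 2 lower at 72h, d4T at 72h 0 and 0, and FLT at 72h 7 and 2. The rises at 24h were then partly other genes: 15 of 25 with d4T and 11 of 18 with FLT were also called against DMSO.

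Without d4T 24h replicate 2 and FLT 24h replicate 1, d4T at 24h gave 37 and 19, FLT at 24h 15 lower, AZT against d4T at 24h 20 and 40, AZT against FLT at 24h 17 higher, d4T against FLT at 24h 2 lower, the d4T interaction 13 and 14 and the FLT interaction 13 higher. With relative log expression scaling, AZT at 72h gave 1 lower, d4T at 72h 1 higher, DMSO against unexposed at 72h 1 lower, AZT against FLT at 72h 2 lower, DMSO 72h against 24h 8 higher, the d4T interaction 0 and 4 and the FLT interaction 2 higher. With library totals, d4T at 72h gave 7 higher, DMSO against unexposed at 72h 0 higher, d4T against FLT at 72h 1 lower and the d4T interaction 2 and 0. This scaling moved the median of all genes by 0.31 with AZT and 0.27 with d4T at 72h. With no filter, d4T at 72h gave 1 higher, DMSO against unexposed at 72h 0 and 1, unexposed 72h against 24h 1 higher, the d4T interaction 0 and 1 and the FLT interaction 3 lower.

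The replicate numbers were not taken to pair the samples, since no comparison had every correlation of same-numbered deviations over 0.1. This rule cannot exclude pairing. For d4T against FLT at 24h the correlations were -0.407, 0.319 and 0.555. With the replicate block, DMSO against unexposed at 24h gave 0 lower and the d4T interaction 2 higher.

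With each library left out, higher and lower members ranged over 0 to 3 and 1 to 4 for AZT, 9 to 35 and 0 to 11 for d4T and 10 to 26 and 0 to 2 for FLT at 24h. At 72h they ranged over 36 to 44 and 0 for AZT, 0 to 1 and 0 to 1 for d4T, and 0 to 2 and 1 for FLT. For DMSO against unexposed they were 2 to 3 and 0 to 4 at 24h and 0 and 0 at 72h. At 24h they were 0 to 18 and 2 to 38 for AZT against d4T, 0 to 11 and 13 to 22 for AZT against FLT and 0 and 0 to 6 for d4T against FLT. At 72h these pairs gave 6 to 18 and 0, 11 to 19 and 0 to 1, and 1 to 2 and 0 to 2. From 72h against 24h came 1 to 3 and 15 to 20 in unexposed and 4 to 15 and 10 to 12 in DMSO worms, and the interactions gave 15 to 22 and 0 to 1 for AZT, 0 to 2 and 0 to 12 for d4T and 0 to 2 and 2 to 8 for FLT.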
